A study of Mus musculus with 20 samples.

Results

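Amino acid transporters of the solute carrier (SLC) families Slc1, Slc3, Slc7, Slc36, Slc38 and Slc43 were followed in 3T3-L1 adipocytes, a mouse fibroblast-like line differentiated into fat cells in culture, after the level of the forkhead transcription factor Foxk1 or of its paralogue Foxk2 had been altered. The members were the protein-coding rows whose mouse symbol starts with Slc1a, Slc3a, Slc7a, Slc36a, Slc38a or Slc43a. They were 43 of 48440 rows of the expression table, 42 of them carrier genes and 1, Slc7a6os, a gene named for its place beside Slc7a6 that encodes no carrier. RNA sequencing covered 20 libraries in 8 groups. In the Foxk1 set, 3 libraries labelled Foxk1 overexpression were compared with 3 of an empty vector, and 3 of a Foxk1 shRNA with 3 of a scrambled shRNA. In the Foxk2 set, the same 4 kinds of group had 2 libraries each. Cells of all groups came from the same line (labelled as of the Swiss mouse strain), had been differentiated with dexamethasone (1 µM), insulin (5 µg/ml), the phosphodiesterase inhibitor IBMX (0.5 mM) and troglitazone (10 µM), were kept in insulin alone after day 4 and were back in growth medium after day 6. The labels do not give the promoter of the constructs, the number of shRNAs, or whether replicates are separate cultures. The p-values therefore reflect only how far these libraries scatter, which may be technical.

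Amino acids cross membranes on carriers that either move them in with sodium or protons or swap them for others. Slc3a2 (the heavy chain CD98, or 4F2hc) brings light chains such as Slc7a5 (LAT1, which takes up leucine and other large neutral amino acids) and Slc7a11 (xCT, which takes up cystine) to the cell surface, and glutamine brought in by Slc1a5 (ASCT2) or by Slc38a2 (SNAT2) can leave again through LAT1 in exchange for leucine, an activator of the growth kinase complex mTORC1. When amino acids are short, the transcription factor ATF4 induces many of these genes through sites at which it binds with C/EBP proteins. In fat tissue Slc36a2 (PAT2) is known as a surface marker of brown and beige adipocytes, and Slc7a10 (ASC-1) as one of white adipocytes.

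Whole reads could be recovered from the deposited values. Each library held 16739763 to 20772823 reads in the Foxk1 set and 31378224 to 36157008 in the Foxk2 set. Foxk1 lay at 7.11 to 8.04 RPKM (reads per kilobase of exon, scaled by the reads of the library) with empty vector and at 6.06 to 6.16 RPKM in the libraries labelled Foxk1 overexpression, so the labelled rise was not seen in the counted gene, and every statement on that comparison carries this limit. Knockdown lowered Foxk1 from 7.98 to 8.80 RPKM down to 2.95 to 3.46 RPKM. Foxk2 rose from at most 13.4 to at least 19.9 RPKM on its overexpression and fell from at least 12.7 to at most 3.29 RPKM on its knockdown. The adipocyte markers Adipoq and Fabp4 were at 647 RPKM or more in every library, and all 16 adipocyte markers listed passed the filter on low values. Most of the 16 nevertheless fell where they were called. In labelled Foxk1 overexpression 10 fell and 3 rose (23.8% and 24.1% of all tested genes), and in Foxk1 knockdown 11 and 0 (15.5% and 20.4%). With Foxk2 overexpressed 9 of these markers fell and 5 rose (22.0% and 23.0%), and with Foxk2 knocked down 7 and 2 (15.7% and 18.0%). Their summed level was below the control range each time, at 11038 to 11154 RPKM against 15702 to 16039 and at 11848 to 12470 against 14144 to 14709 in the Foxk1 set, and at 10563 against 14077 to 14261 and 12829 to 13244 against 15429 to 15509 in the Foxk2 set. Fibroblast and preadipocyte markers moved with the manipulations. Of 15 tested of 16, 14 fell and 0 rose in each overexpression, where 23.8% and 22.0% of all tested genes fell. In each knockdown 15 of these markers rose, where 20.4% and 18.0% of all tested genes did. The summed level of the fibroblast markers went from 1640 to 1893 RPKM with empty vector down to 816 to 840 RPKM in labelled Foxk1 overexpression, and from 1643 to 1679 down to 815 to 828 RPKM in Foxk2 overexpression. It went from 2643 to 2820 RPKM with scrambled shRNA up to 4226 to 4427 RPKM in Foxk1 knockdown, and from 1131 to 1149 up to 2414 to 2476 RPKM in Foxk2 knockdown. In bulk RNA, fewer cells of a type cannot be told apart from less RNA per cell, and the part of these markers in the results on carriers was not tested. Of 9 macrophage markers 4 passed the filter. Their summed level was also lower in both overexpressions and higher in both knockdowns than in the controls. It lay within 3.83 to 8.34 RPKM over all libraries, and Itgam, also on the list, was at 0 in 19 of 20. The log2 fold changes of the 4 had mixed signs with Foxk1 (-1.08 to 0.25 in labelled overexpression, -0.17 to 1.02 in knockdown). With Foxk2 they spanned -0.63 to -0.003 in overexpression and 0.07 to 0.84 in knockdown. Of 6 muscle markers 2 passed (Des and Acta1). Their summed level lay above the control range in both overexpressions (9.98 to 11.4 RPKM against 7.05 to 7.67, and 11.3 to 12.1 against 5.50 to 6.14) and below it in both knockdowns (8.32 to 8.86 RPKM against 12.8 to 13.7, and 5.48 to 5.88 against 8.83 to 9.12), and Myod1 and Myog were at 0 in all 20. The sum hides opposite signs. The log2 fold changes of the 2 that passed spanned -0.67 to 0.65 in labelled Foxk1 overexpression. They spanned -0.46 to 1.13 in Foxk2 overexpression and -0.71 to 0.08 in Foxk2 knockdown. In Foxk1 knockdown both were below 0, at -0.70 and -0.33.

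The 2 sets also differed in RNA from the opposite strand. Of 907 tested genes annotated as antisense, 620 (68.4%) were at least 4-fold higher in the Foxk1 set and 3 (0.331%) in the Foxk2 set, against 4.34% and 0.648% of 11723 protein-coding genes. The strand setting of the counting is not given in the sources used here, and without strand the reads of a gene and of its antisense partner cannot be told apart. Among the tested members this touches Slc3a1, which shares 26.5% of its exon bases with Prepl on the other strand, Slc43a2 (9.18%, with Gm45606), Slc7a7 (7%, with Oxa1l), Slc38a10 (5.72%, with Gm11769) and Slc38a9 (1.09%, with Gm47827). For that reason, and because the sets differ in depth, levels and effects set side by side across the factors cannot be told apart from differences between the sets.

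A few carriers held most of the transporter mRNA. Of the 42 carriers, 23 passed the filter of 0.5 RPKM or more in at least 2 libraries, as did Slc7a6os. Slc1a5 and Slc3a2 ranked first and second in all 4 control groups. Slc1a5 stood at 281 ± 10.3 RPKM (SD, n = 3) with empty vector and 149 ± 6.03 RPKM (n = 3) with scrambled shRNA in the Foxk1 set, and at 349 ± 7.37 and 403 ± 4.66 RPKM (n = 2 each) in the Foxk2 set. It made up 26.1 to 49.0% of the summed RPKM of all carriers over the 20 libraries, and with Slc3a2, Slc7a5, Slc38a2 and Slc1a3 it made up 64.8 to 85.9%. The order of the next 3 was not fixed: Slc7a5 had rank 3 among all members in both control groups of the Foxk2 set, at 84.7 ± 2.76 and 86.8 ± 1.5 RPKM, and ranks 5 and 6 in the Foxk1 set, at 46.5 ± 4.35 and 22.1 ± 0.838 RPKM. The range of the summed level of all carriers did not overlap between any manipulation and its own control: it was 632 to 659 RPKM against 738 to 772 RPKM in labelled Foxk1 overexpression, 419 to 433 against 362 to 376 RPKM in Foxk1 knockdown, 779 to 794 against 751 to 777 RPKM in Foxk2 overexpression, and 817 to 832 against 727 to 751 RPKM in Foxk2 knockdown. Both knockdowns and Foxk2 overexpression thus lay below their controls and labelled Foxk1 overexpression above. The gap was narrow in Foxk2 overexpression, at 777 against 779 RPKM. Group ranges were also apart for many single genes, namely 52.3%, 44.2%, 70.3% and 67.2% of all tested genes in the same order.

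**Figure D1:**
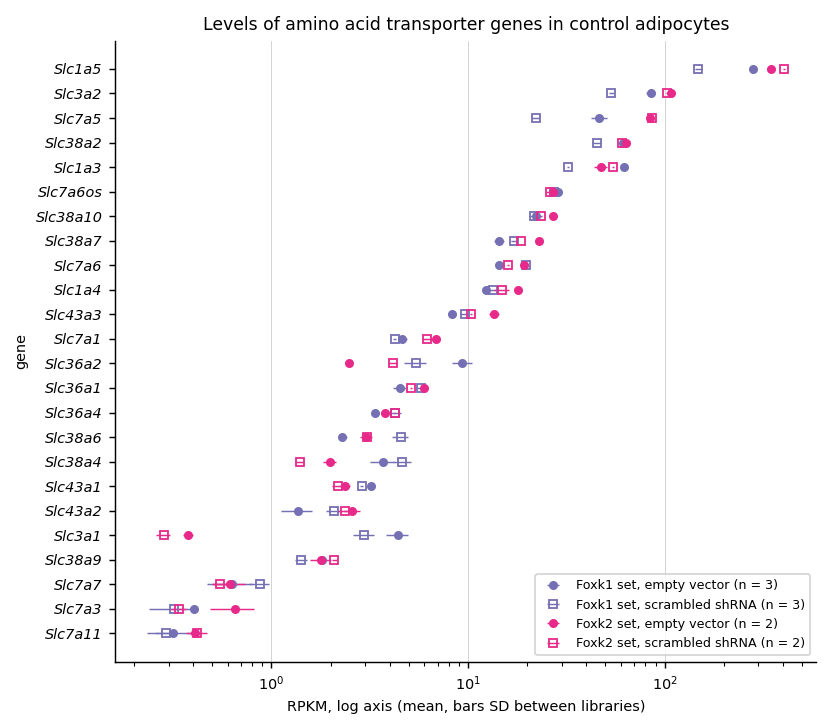
Levels of the 24 tested members in the 4 control groups, in RPKM on a log axis, as means with the SD between libraries (n = 3 in the Foxk1 set, n = 2 in the Foxk2 set). Slc1a5 and Slc3a2 lead in every control group, and Slc3a1 lies far apart between the sets.

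The other 19 carriers stayed at or near 0 and were not tested. They are Slc1a1, Slc1a2, Slc1a6 and Slc1a7 (glutamate carriers), the light chains Slc7a8, Slc7a9, Slc7a10, Slc7a12, Slc7a13 and Slc7a15, the Slc7 members Slc7a2, Slc7a4 and Slc7a14, the proton-coupled Slc36a3, and Slc38a1, Slc38a3, Slc38a5, Slc38a8 and Slc38a11 of the sodium-coupled family. Slc7a2, a carrier of arginine and other cationic amino acids, was the highest of them, with at most 0.349 RPKM and 102 reads in a library. Slc7a8 reached 0.239 RPKM, Slc38a1 0.171 RPKM and Slc7a15 0.118 RPKM, and the other 15 stayed at or under 0.0610 RPKM. The white adipocyte marker Slc7a10 had at most 2 reads in a library and none in 18 of 20.

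Most tested members passed the test in each comparison, and so did a large share of all genes. A member was called where limma's Benjamini-Hochberg adjusted p over 15981 genes was under 0.05. In labelled Foxk1 overexpression 20 of 24 members were called, where 47.8% of all tested genes were. In Foxk1 knockdown 16 were called, against 35.9% of all genes, in Foxk2 overexpression 18, against 45.0%, and in Foxk2 knockdown 13, against 33.7%. Among the 12420 genes that average at least 1 RPKM, the counts were 18, 15, 16 and 12 of 21 members, against 54.3%, 40.8%, 52.5% and 39.8% of genes. The ranges of the libraries did not overlap between a manipulation and its control for 21 members in labelled Foxk1 overexpression (52.3% of all genes), 19 in Foxk1 knockdown (44.2%), 23 with Foxk2 overexpressed (70.3%) and 20 with Foxk2 knocked down (67.2%). The count in Foxk2 knockdown fell from 13 to 8 when library 1 of its scrambled shRNA controls or knockdown library 2 was left out.

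Carriers did not move one way. Of the 23 tested carriers, 9 rose and 10 fell in labelled Foxk1 overexpression (24.1% and 23.8% of all genes), 7 rose and 8 fell in Foxk1 knockdown (20.4% and 15.5%), 6 rose and 12 fell in Foxk2 overexpression (23.0% and 22.0%), and 8 rose and 5 fell in Foxk2 knockdown (18.0% and 15.7%). Their median log2 fold change was -0.15, -0.03, -0.20 and 0.11 in that order, where the median over all tested genes was 0 to 0.02. After each library had been corrected for trends with the length and GC content of genes, 3 of the 24 members rose and 10 fell in Foxk1 knockdown in place of 7 and 9, and 4 rose and 6 fell in Foxk2 knockdown in place of 8 and 5. Changes of at least 2-fold on the log2(RPKM + 0.5) scale were rare: Slc36a2 alone passed that size, in 3 of 4 comparisons, where 3.62% of all genes did so in labelled Foxk1 overexpression, 3.91% in Foxk2 overexpression and 2.37% in Foxk2 knockdown (1.65%, and 0 members, in Foxk1 knockdown).

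**Figure D2:**
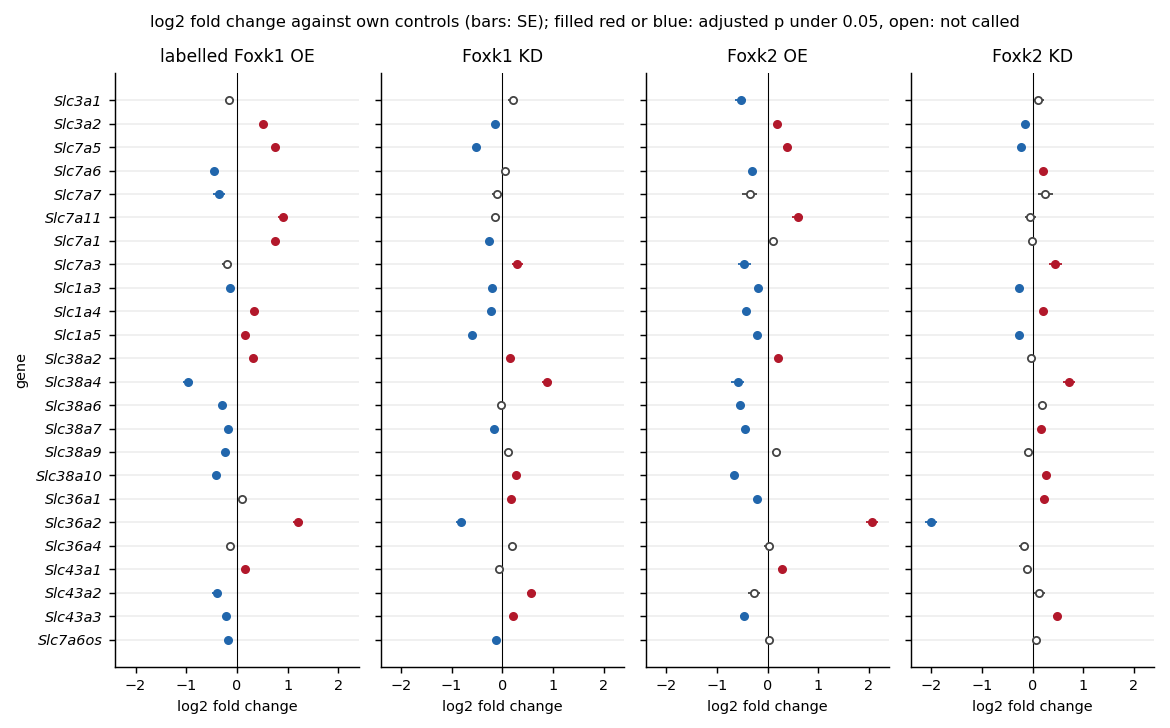
Change in log2(RPKM + 0.5) of the 24 tested members in each of the 4 comparisons, as the model's estimate with its SE; filled points had an adjusted p under 0.05 in limma (red rose, blue fell) and open points did not. Slc36a2 shows the largest effects of either sign among the members, from -2.01 to 2.06.

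The proton-coupled carrier Slc36a2 had the largest change among the members on the log2(RPKM + 0.5) scale in 3 comparisons, and in Foxk1 knockdown the second after Slc38a4. Slc36a2 (ENSMUSG00000020264.5, chromosome 11, 55158470 to 55185077 in mm10, minus strand) imports glycine, alanine and proline with protons. It stood at 8.71, 10.6 and 8.72 RPKM with empty vector and at 23.1, 21.1 and 22.0 RPKM in the libraries labelled Foxk1 overexpression. Foxk1 knockdown took it from 5.87, 4.63 and 5.83 RPKM to 2.37, 3.23 and 3.06 RPKM. The groups did not overlap in either comparison. In the Foxk2 set it was at 2.39 and 2.55 RPKM with empty vector and at 11.9 RPKM in both overexpression libraries, and at 3.99 and 4.29 RPKM with scrambled shRNA and at 0.695 and 0.614 RPKM in knockdown. Mean RPKM was thus 2.36-fold and 4.82-fold higher in the overexpressions and 1.89-fold and 6.33-fold lower in the knockdowns. On the log2(RPKM + 0.5) scale the changes were 1.20 ± 0.10 (SE, adjusted p = 1.02e-07) and -0.81 ± 0.10 (adjusted p = 1.27e-05) for Foxk1, and 2.06 ± 0.12 (adjusted p = 3.01e-09) and -2.01 ± 0.12 (adjusted p = 1.03e-08) for Foxk2, all by limma. These 4 calls held in every alternative and with each library of the groups compared left out. The fibroblast markers above moved the opposite way in each comparison. The summed muscle markers moved the same way, though their 2 tested genes had opposite signs except in Foxk1 knockdown. The part of either marker list was not tested.

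Its relatives changed little. Slc36a1 (PAT1, a lysosomal carrier that takes part in amino acid sensing by mTORC1) lay between 4.27 and 6.67 RPKM in all libraries, rose by 0.18 ± 0.057 in Foxk1 knockdown (adjusted p = 0.0210) and 0.22 ± 0.070 in Foxk2 knockdown (adjusted p = 0.0226) and fell by 0.20 ± 0.070 in Foxk2 overexpression (adjusted p = 0.0260). All 3 calls ended under quantile normalization and under the length and GC correction, both Foxk2 calls ended when any 1 of their 4 libraries was left out (adjusted p = 0.0512 to 0.138), and the Foxk1 call ended without scrambled library 3 (0.0956) or knockdown library 1 (0.0585). Slc36a4 (PAT4, which carries proline and tryptophan) was the one tested carrier called in no comparison, against 27.9% of all tested genes, with group means of 3.04 to 4.93 RPKM. In Foxk1 knockdown it narrowly missed the threshold (0.19 ± 0.070, adjusted p = 0.0507), with the groups apart. It passed there in some alternatives, among them a pseudocount of 1 (0.0457) and voom (0.0329).

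The heavy chain Slc3a2 and its light chain Slc7a5 rose in both overexpressions and fell in both knockdowns. Slc7a5 (ENSMUSG00000040010.10, chromosome 8, 121881150 to 121907694, minus strand) was at 42.8, 51.3 and 45.3 RPKM with empty vector and at 74.5, 79.2 and 81.6 RPKM in labelled Foxk1 overexpression. Foxk1 knockdown lowered it from 22.7, 22.4 and 21.1 RPKM to 15.7, 14.9 and 15.1 RPKM. In the Foxk2 set it went from 82.7 and 86.6 RPKM to 109 and 111 RPKM with overexpression, and from 87.9 and 85.8 RPKM to 74.6 and 73.4 RPKM with knockdown. No control library overlapped its manipulated group. The changes were 0.75 ± 0.053 (adjusted p = 1.33e-08) and -0.52 ± 0.053 (adjusted p = 1.55e-06) with Foxk1, and 0.38 ± 0.065 (adjusted p = 0.000176) and -0.23 ± 0.065 (adjusted p = 0.0123) with Foxk2. The last of these missed the threshold without scrambled library 1 (adjusted p = 0.0742) or without knockdown library 2 (adjusted p = 0.0676).

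Slc3a2 (ENSMUSG00000010095.13, chromosome 19, 8706882 to 8723369, minus strand) moved the same way by smaller amounts. It was at 80.4, 88.8 and 86.7 RPKM with empty vector and at 117, 125 and 125 RPKM in labelled Foxk1 overexpression, and went from 55.3, 53.5 and 52.0 RPKM to 48.9, 46.7 and 49.4 RPKM in Foxk1 knockdown. With Foxk2 it went from 105 and 110.3 RPKM to 120.2 and 125 RPKM with overexpression and from 103 and 102 RPKM to 92.9 and 91.7 RPKM with knockdown. Groups were apart in all 4 comparisons. The changes were 0.52 ± 0.040 (adjusted p = 4.19e-08) and -0.15 ± 0.040 (adjusted p = 0.00921) with Foxk1, and 0.18 ± 0.049 (adjusted p = 0.00616) and -0.15 ± 0.049 (adjusted p = 0.0266) with Foxk2. Both Foxk2 calls depend on single libraries. That of overexpression ended without empty-vector library 1 (change of 0.15) or overexpression library 2 (change of 0.16). It also ended under quantile normalization (adjusted p = 0.129) and in the fit on its 2 groups alone (0.0521). That of knockdown ended whichever of its 4 libraries was left out (changes of -0.14 to -0.16).

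Heavy chain mRNA per light chain mRNA was higher in the Foxk1 set than in the Foxk2 set, and it left its control range in 2 comparisons. The light chains that pair with Slc3a2 (Slc7a5, Slc7a6, Slc7a7, Slc7a8, Slc7a10 and Slc7a11) summed to 36.8 ± 0.974 RPKM (SD, n = 3) in Foxk1 knockdown, the lowest group, and 127 ± 2.02 RPKM (n = 2) in Foxk2 overexpression, the highest. Slc3a2 per unit of that sum was 1.22 to 1.43 over the 12 libraries of the Foxk1 set and 0.956 to 1.03 over the 8 of the Foxk2 set. It was higher in Foxk1 knockdown (1.31 to 1.32 against 1.22 to 1.27) and lower in Foxk2 overexpression (0.956 to 0.971 against 1.02 to 1.03) than in their controls, and its ranges overlapped in the other comparisons. Slc7a5 alone accounted for 40.0 to 87.4% of the sum, with the low end in Foxk1 knockdown, where Slc7a6 (20.4 RPKM) exceeded Slc7a5 (15.2 RPKM), and the high end in labelled Foxk1 overexpression.

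**Figure D3:**
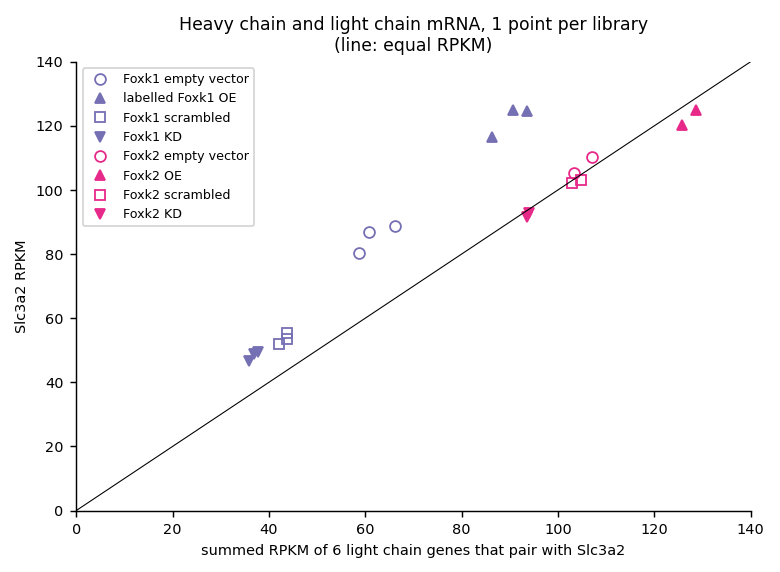
RPKM of the heavy chain gene Slc3a2 against the summed RPKM of the 6 light chain genes that pair with it, 1 point per library, with a line at equal values. The 12 libraries of the Foxk1 set lie above the line and the 8 of the Foxk2 set close to it, at 0.956 to 1.03.

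The remaining light chains went their own ways. Slc7a6 (y+LAT2, an exchanger of cationic and neutral amino acids) fell in both overexpressions, from 14.4 ± 0.443 to 10.4 ± 0.130 RPKM (SD, n = 3 each; change of -0.46 ± 0.034, adjusted p = 2.44e-08) in labelled Foxk1 overexpression and from 19.4 ± 0.151 to 15.6 ± 0.548 RPKM (n = 2 each; -0.30 ± 0.042, adjusted p = 2.16e-05) in Foxk2 overexpression. It rose in Foxk2 knockdown, from 16.0 to 18.6 RPKM on average (0.21 ± 0.042, adjusted p = 0.00107), and was not called in Foxk1 knockdown (0.05 ± 0.034, adjusted p = 0.288). Slc7a6 thus moved against Slc7a5, with which it shares the heavy chain, in the 3 comparisons that called both. Slc7a7 (y+LAT1, a relative of similar function) averaged under 0.9 RPKM in every group and was called once, falling in labelled Foxk1 overexpression (-0.36 ± 0.12, adjusted p = 0.0178). That call ended under quantile normalization (adjusted p = 0.0672), in the fit on its 2 groups alone (0.0990) and without empty-vector library 1 (0.0936), empty-vector library 3 (0.0541) or overexpression library 2 (0.0915). In Foxk2 overexpression Slc7a7 changed by a similar amount and narrowly missed the threshold (-0.36 ± 0.14, adjusted p = 0.0524), with the groups apart. It passed there in some alternatives, among them voom (0.0146) and the fit on the Foxk2 set alone (0.0155). The other heavy chain, Slc3a1 (rBAT, the partner of the kidney and gut carrier Slc7a9), averaged 2.95 to 4.39 RPKM in the groups of the Foxk1 set and 0.107 to 0.376 RPKM in those of the Foxk2 set, while Prepl on the other strand averaged 11.7 to 15.1 RPKM throughout. Slc3a1 was called in Foxk2 overexpression alone (-0.53 ± 0.11, adjusted p = 0.00104), and with its exon overlap the values are uncertain.

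Slc7a11 was low and rose in both overexpressions. Only 5 libraries reached the 0.5 RPKM of the filter, and all were overexpression libraries. The gene was thus tested only through the groups where it was high, and its calls carry this limit. It lies outside the rule for genes given library by library and was chosen after its values were seen, because its promoter is the one among the 32 members with a promoter window that held both motifs searched. It was at 0.257, 0.406 and 0.279 RPKM with empty vector and at 0.961, 0.971 and 1.12 RPKM in labelled Foxk1 overexpression, and at 0.393 and 0.425 RPKM against 0.846 and 0.895 RPKM in Foxk2 overexpression. Mean RPKM was 3.24-fold and 2.13-fold higher, and on the log2(RPKM + 0.5) scale, which understates changes this low, the differences were 0.90 ± 0.085 (adjusted p = 3.51e-07) and 0.59 ± 0.10 (adjusted p = 0.000224). In knockdown the means were 0.290 and 0.220 RPKM with Foxk1 (-0.13 ± 0.085, adjusted p = 0.247) and 0.418 and 0.389 RPKM with Foxk2 (-0.05 ± 0.10, adjusted p = 0.821).

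Promoter windows of RefSeq (GRCm38.p6, 250 bases before to 50 bases after the start) were matched by symbol for 32 of the 43 members, in 43 windows, and searched on both strands for TGATGNAA, the composite site of ATF4 with C/EBP, and for GTAAACA, a core forkhead site. The members without a window, which could not be searched, include Slc36a2, Slc7a5 and Slc1a5. TGATGNAA was in the windows of 3 members (Slc1a4, Slc7a7 and Slc7a11), where 4.51% of all genes and 3.97% of all windows held it. GTAAACA was in the windows of 2 (Slc7a11 and the untested Slc36a3), where 4.05% of genes and 3.65% of windows did. The 2 promoters below belong to members that rose in labelled Foxk1 overexpression and hold a match, with matches in capitals, read 5′ to 3′ on the strand of the gene. The first, chr3:50443614-50443863 on the minus strand, covers the 250 bases up to the start of Slc7a11, with GTAAACA on the opposite strand from position -232, TGATGCAA from -66 and its reverse complement from -47. The second, chr11:20332694-20332833 on the minus strand, covers 140 bases around the start of Slc1a4, with the reverse complement of TGATGCAA from position -4.
Slc7a11: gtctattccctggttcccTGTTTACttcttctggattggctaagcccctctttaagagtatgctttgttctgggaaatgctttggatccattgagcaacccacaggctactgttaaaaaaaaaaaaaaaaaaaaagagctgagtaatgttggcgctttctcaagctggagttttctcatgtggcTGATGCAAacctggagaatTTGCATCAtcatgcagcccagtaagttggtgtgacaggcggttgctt
Slc1a4: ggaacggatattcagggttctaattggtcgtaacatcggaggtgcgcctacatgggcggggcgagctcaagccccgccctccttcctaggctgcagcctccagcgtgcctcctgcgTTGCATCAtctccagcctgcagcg
Of the 3 tested members with TGATGNAA in a window, Slc1a4 and Slc7a11 rose in labelled Foxk1 overexpression and Slc7a7 fell. A match is a description of the letters, and no binding was measured.

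Of the cationic carriers, Slc7a1 (CAT1, the main arginine importer of most cells; ENSMUSG00000041313.14, chromosome 5, 148327410 to 148399904, minus strand) changed with Foxk1. It was at 4.54, 4.92 and 4.45 RPKM with empty vector and at 8.02, 7.85 and 8.59 RPKM in labelled Foxk1 overexpression, and went from 4.26, 4.14 and 4.3 RPKM to 3.65, 3.28 and 3.43 RPKM in Foxk1 knockdown. Neither pair of groups overlapped, with changes of 0.75 ± 0.048 (adjusted p = 3.90e-09) and -0.26 ± 0.048 (adjusted p = 0.000477). With Foxk2 it was at 6.78 and 6.99 RPKM against 7.44 and 7.46 RPKM with overexpression (0.11 ± 0.058, adjusted p = 0.167) and at 6.46 and 5.93 RPKM against 6.17 and 6.14 RPKM with knockdown (-0.01 ± 0.058, adjusted p = 0.971). The difference between the effects of the factors was 0.65 ± 0.075 in overexpression (adjusted p = 2.38e-05). Slc7a3 (CAT3) stayed under 0.8 RPKM in every library. Only 5 libraries reached the 0.5 RPKM of the filter, all in the higher group of their comparison (both knockdowns and Foxk2 empty vector). Slc7a3 was thus tested only through groups where it was high, and its calls carry this limit. It rose in both knockdowns (0.30 ± 0.10, adjusted p = 0.0349, and 0.44 ± 0.13, adjusted p = 0.0132) and fell in Foxk2 overexpression (-0.45 ± 0.13, adjusted p = 0.00820), and each of these calls ended without 1 of 2 or 3 libraries. For Foxk1 knockdown these were scrambled libraries 1 and 3 and knockdown library 1 (adjusted p = 0.0505 to 0.156). For Foxk2 overexpression they were empty-vector library 1 and overexpression library 2 (changes of -0.31 and -0.43). For Foxk2 knockdown they were scrambled library 1 and knockdown library 2 (changes of 0.41 and 0.37). In fits on their 2 groups alone the Foxk1 knockdown call (adjusted p = 0.101) and the Foxk2 overexpression call (0.0795) ended too. The Foxk1 knockdown call also ended under quantile normalization (0.101) and the length and GC correction (0.0617).

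**Figure D4:**
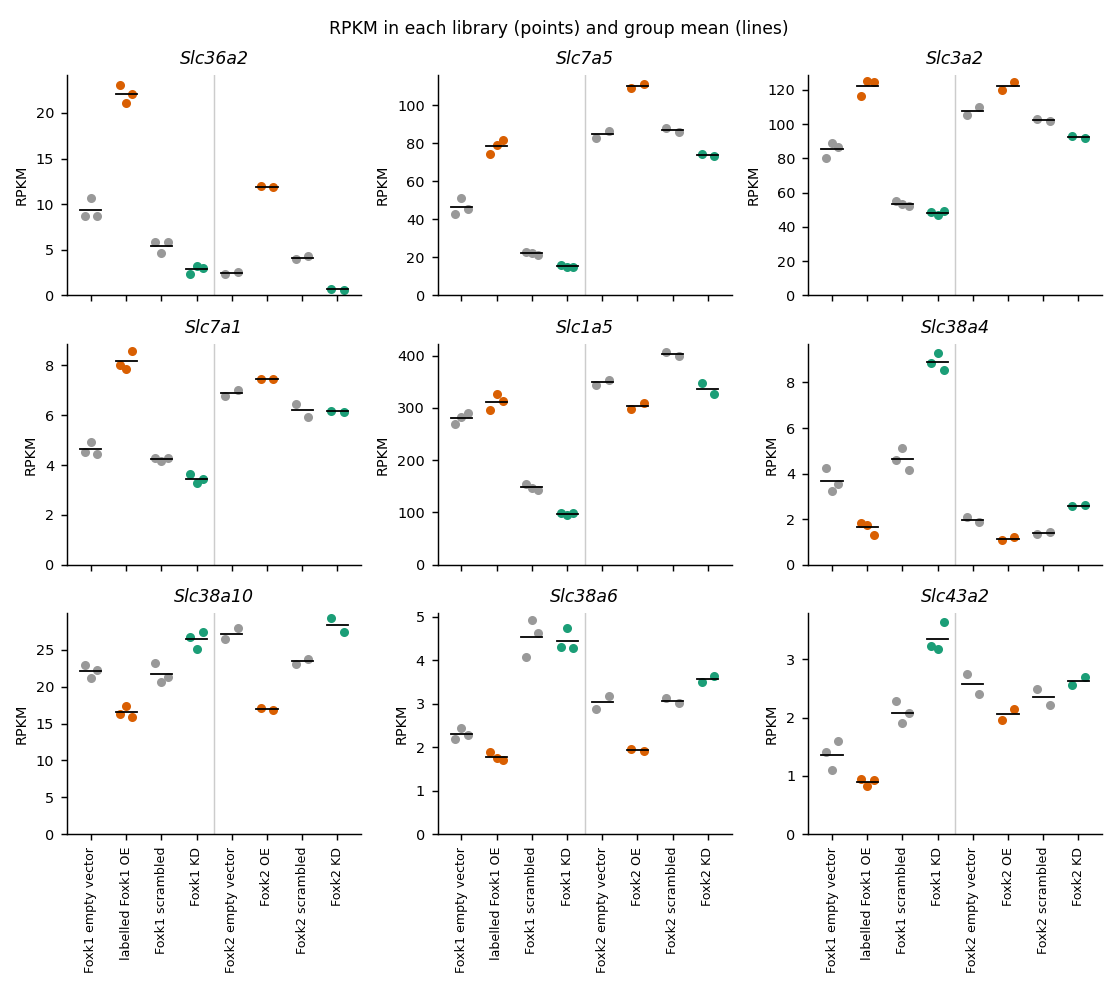
RPKM in each library (points) with the group mean (line), for 9 carriers, in the order empty vector, overexpression, scrambled shRNA and knockdown for Foxk1 and then Foxk2. Slc36a2, Slc7a5 and Slc3a2 lie above their controls in both overexpressions and below them in both knockdowns; Slc38a4 and Slc38a10 show the reverse.

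Slc1a5 (ASCT2, a sodium-dependent exchanger of glutamine and other neutral amino acids; ENSMUSG00000001918.17, chromosome 7, 16781340 to 16798274, plus strand) fell in 3 comparisons. Foxk1 knockdown took it from 155, 147 and 144 RPKM to 99.6, 94.5 and 99 RPKM, a 1.52-fold fall (-0.60 ± 0.042, adjusted p = 3.16e-08). In Foxk2 knockdown it went from 407 and 400.1 RPKM to 347 and 326 RPKM (-0.26 ± 0.052, adjusted p = 0.000963), and in Foxk2 overexpression from 343 and 354 RPKM to 297 and 308 RPKM (-0.20 ± 0.052, adjusted p = 0.00445). In labelled Foxk1 overexpression it rose from 270, 283 and 290.1 RPKM to 296, 326 and 314 RPKM (0.15 ± 0.042, adjusted p = 0.00784). No pair of groups overlapped, but both overexpression calls were sensitive: that of Foxk1 ended under quantile normalization (0.04, adjusted p = 0.501), that of Foxk2 under the length and GC correction (-0.02, adjusted p = 0.683), and both in fits on their 2 groups alone (0.0561 and 0.0524).

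Its relative Slc1a4 (ASCT1, an exchanger of alanine, serine and cysteine) went opposite ways with the 2 factors. It rose in labelled Foxk1 overexpression from 12.3 to 15.6 RPKM (0.33 ± 0.050, adjusted p = 5.60e-05) and fell in Foxk2 overexpression from 17.9 to 13.3 RPKM (-0.42 ± 0.061, adjusted p = 3.99e-05). It fell in Foxk1 knockdown from 13.4 to 11.4 RPKM (-0.22 ± 0.050, adjusted p = 0.00249) and rose in Foxk2 knockdown from 14.8 to 17.1 RPKM (0.20 ± 0.061, adjusted p = 0.0173). The last call ended without scrambled library 2 (adjusted p = 0.248), knockdown library 1 (0.0592) or knockdown library 2 (0.0839), under the length and GC correction (0.0841) and in fits on the 2 groups (0.144) or on the Foxk2 set alone (0.0845). Slc1a3 (the glutamate carrier GLAST) fell in all 4 comparisons, by 0.15 ± 0.038 (adjusted p = 0.00472) and 0.20 ± 0.038 (adjusted p = 0.000655) with Foxk1 and by 0.19 ± 0.047 (adjusted p = 0.00297) and 0.28 ± 0.047 (adjusted p = 0.000240) with Foxk2, with control means of 32.3 to 62.6 RPKM. It missed the threshold in labelled Foxk1 overexpression under the length and GC correction (adjusted p = 0.0827). In Foxk2 overexpression it did so in the fit on the 2 groups alone (adjusted p = 0.107) and without empty-vector library 1, where the change was -0.12.

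Of the 6 tested sodium-coupled neutral carriers of family Slc38, 5 fell and 1 rose in labelled Foxk1 overexpression, where 23.8% of all genes fell and 24.1% rose, and 4 fell and 1 rose in Foxk2 overexpression, where 22.0% fell and 23.0% rose. Slc38a4 (SNAT4, a placental and liver carrier that is imprinted in the mouse; ENSMUSG00000022464.13, chromosome 15, 96994820 to 97055956, minus strand) changed most among them except in Foxk2 overexpression, where Slc38a10 changed more. It went from 4.26, 3.26 and 3.56 RPKM to 1.84, 1.76 and 1.32 RPKM in labelled Foxk1 overexpression (-0.97 ± 0.10, adjusted p = 9.94e-07) and from 4.59, 5.14 and 4.16 RPKM to 8.85, 9.28 and 8.54 RPKM in Foxk1 knockdown (0.88 ± 0.10, adjusted p = 5.50e-06). In Foxk2 overexpression it went from 2.09 and 1.87 RPKM to 1.07 and 1.23 RPKM (-0.59 ± 0.12, adjusted p = 0.000986), and in Foxk2 knockdown from 1.34 and 1.44 RPKM to 2.58 and 2.60 RPKM (0.71 ± 0.12, adjusted p = 0.000318). All 4 pairs of groups were apart and all 4 calls held in every alternative. It moved in the direction of the fibroblast markers each time.

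Slc38a10 (a carrier of glutamine, glutamate and alanine; ENSMUSG00000061306.15, chromosome 11, 120103960 to 120151346, minus strand) had the same directions at higher levels. It was at 23.0, 21.2 and 22.3 RPKM with empty vector and at 16.3, 17.4 and 15.9 RPKM in labelled Foxk1 overexpression (-0.41 ± 0.050, adjusted p = 5.02e-06), and at 23.2, 20.7 and 21.3 RPKM against 26.8, 25.2 and 27.4 RPKM in Foxk1 knockdown (0.28 ± 0.050, adjusted p = 0.000382). In Foxk2 overexpression it went from 26.4 and 28 RPKM to 17.1 and 16.8 RPKM (-0.66 ± 0.061, adjusted p = 2.92e-07), and in Foxk2 knockdown from 23.1 and 23.7 RPKM to 29.3 and 27.4 RPKM (0.27 ± 0.061, adjusted p = 0.00272). Groups were apart in all 4, and the last call ended under the length and GC correction (0.08, adjusted p = 0.215). Gm11769, which shares exon bases with it on the other strand, averaged 5.75 to 8.70 RPKM in the Foxk1 set and 0.0605 to 0.128 RPKM in the Foxk2 set. Its part in the Slc38a10 values was not tested.

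Slc38a6 (an orphan member of the family; ENSMUSG00000044712.15, chromosome 12, 73286779 to 73354049, plus strand) fell in both overexpressions. It went from 2.19, 2.43 and 2.27 RPKM to 1.90, 1.74 and 1.71 RPKM in the libraries labelled Foxk1 overexpression (-0.29 ± 0.063, adjusted p = 0.00126), and from 2.89 and 3.17 RPKM to 1.96 and 1.92 RPKM with Foxk2 (-0.53 ± 0.078, adjusted p = 3.78e-05). In Foxk1 knockdown the groups overlapped, at 4.08, 4.92 and 4.64 RPKM against 4.31, 4.74 and 4.29 RPKM (-0.03 ± 0.063, adjusted p = 0.798). In Foxk2 knockdown it was at 3.14 and 3.01 RPKM against 3.5 and 3.64 RPKM, which did not pass (0.19 ± 0.078, adjusted p = 0.0784). Up to 37.5% of a transcript of Slc38a6 is near-identical to transcripts of other genes, so its values are uncertain.

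Slc38a2 (SNAT2, the carrier of small neutral amino acids that cells raise when amino acids are scarce) was the one Slc38 member to rise with overexpression. It rose from 61.2 to 75.8 RPKM in labelled Foxk1 overexpression (0.31 ± 0.045, adjusted p = 3.85e-05), from 63.6 to 73.7 RPKM in Foxk2 overexpression (0.21 ± 0.055, adjusted p = 0.00530) and from 45.5 to 50.6 RPKM in Foxk1 knockdown (0.15 ± 0.045, adjusted p = 0.0141). The Foxk2 call ended under quantile normalization (adjusted p = 0.131) and in the fit on its 2 groups alone (0.0598). It also ended without empty-vector library 2 or overexpression library 2 (change of 0.17 in each). The knockdown call ended under the length and GC correction (adjusted p = 0.276) and without scrambled library 1 (0.0710) or knockdown library 3 (0.0540). Slc38a7 (SNAT7, a lysosomal glutamine exporter) fell in 3 comparisons, most in Foxk2 overexpression (from 23.1 to 16.8 RPKM; -0.45 ± 0.050, adjusted p = 2.78e-06), against -0.18 ± 0.041 in labelled Foxk1 overexpression (adjusted p = 0.00219) and -0.16 ± 0.041 in Foxk1 knockdown (adjusted p = 0.00675). In Foxk2 knockdown it rose by 0.17 ± 0.050 (adjusted p = 0.0175), a call that ended under the length and GC correction (0.275) and without scrambled library 1 (0.0802), scrambled library 2 (0.0680) or knockdown library 1 (0.0994). Slc38a9, the lysosomal arginine sensor of mTORC1, was at 1.42 to 2.09 RPKM in group means and was called once, falling in labelled Foxk1 overexpression (-0.23 ± 0.069, adjusted p = 0.0118), which did not hold under quantile normalization (0.0739), the length and GC correction (0.0569) or without empty-vector library 1 (0.0554).

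Slc43a1 and Slc43a2 of family Slc43 carry large neutral amino acids without sodium. Slc43a2 (LAT4; ENSMUSG00000038178.16, chromosome 11, 75531694 to 75577575, plus strand) went from 1.41, 1.10 and 1.59 RPKM to 0.954, 0.818 and 0.932 RPKM in labelled Foxk1 overexpression (-0.41 ± 0.092, adjusted p = 0.00189) and from 2.28, 1.90 and 2.07 RPKM to 3.22, 3.18 and 3.65 RPKM in Foxk1 knockdown (0.57 ± 0.092, adjusted p = 0.000156). Neither pair overlapped. With Foxk2 it was at 2.75 and 2.41 RPKM against 1.96 and 2.15 RPKM with overexpression (-0.27 ± 0.11, adjusted p = 0.0665) and at 2.50 and 2.21 RPKM against 2.56 and 2.69 RPKM with knockdown (0.13 ± 0.11, adjusted p = 0.430). Gm45606 on the other strand averaged 0.453 to 1.32 RPKM in the Foxk1 set, and its means there went the same way as those of Slc43a2, from 0.527 to 0.453 RPKM and from 0.897 to 1.32 RPKM. Its part in the Slc43a2 values was not tested.

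Slc43a3 (a nucleobase carrier placed in this family by sequence) fell in both overexpressions, from 8.25 to 7.06 RPKM (-0.21 ± 0.059, adjusted p = 0.00790) and from 13.6 to 9.64 RPKM (-0.47 ± 0.072, adjusted p = 6.29e-05), and rose in both knockdowns, from 9.60 to 11.2 RPKM (0.20 ± 0.059, adjusted p = 0.0132) and from 10.4 to 14.6 RPKM (0.48 ± 0.072, adjusted p = 0.000103). The Foxk1 knockdown call ended under the length and GC correction (0.0634), in the fit on its 2 groups alone (0.115) and without scrambled library 2 (0.0634) or knockdown library 2 (0.0750). Slc43a1 (LAT3) rose in both overexpressions, by 0.16 ± 0.057 (adjusted p = 0.0324) and 0.28 ± 0.070 (adjusted p = 0.00417). The first call ended with no filter (adjusted p = 0.0509) and without any 1 of 5 of its 6 libraries, all but overexpression library 1 (0.0541 to 0.0978). The second ended in the fit on its 2 groups alone (0.0578) and without empty-vector library 2, where the change was 0.22. Slc7a6os, which encodes no carrier, fell from 28.6 to 25.3 RPKM in labelled Foxk1 overexpression (-0.17 ± 0.031, adjusted p = 0.000239) and from 27.3 to 25.1 RPKM in Foxk1 knockdown (-0.12 ± 0.031, adjusted p = 0.00737).

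Overexpression and knockdown of a factor, which have separate controls, moved many carriers in opposite directions. For Foxk1, 10 of 23 carriers were called in opposite directions and 3 in the same (Slc1a3, Slc38a2 and Slc38a7), where 21.4% and 3.47% of all genes were. For Foxk2 the counts were 11 and 2 (Slc1a3 and Slc1a5), against 22.0% and 2.11%. Among all carriers, 10 were called in all 4 comparisons, where 13.0% of all genes were. Slc36a2, Slc7a5 and Slc3a2 rose in both overexpressions and fell in both knockdowns. Slc38a4, Slc38a10 and Slc43a3 did the reverse.

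**Figure D5:**
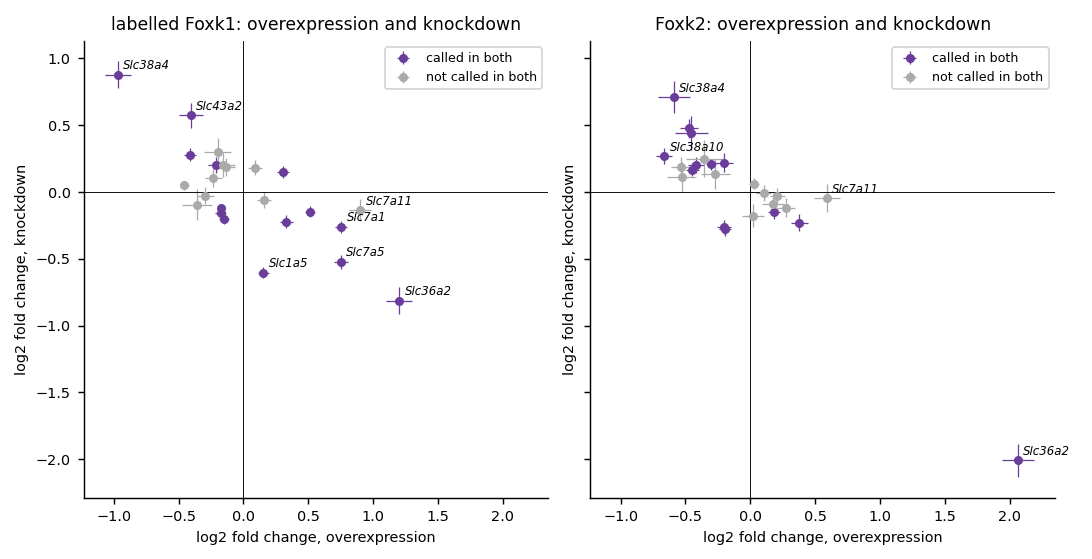
Change in log2(RPKM + 0.5) in knockdown against that in overexpression for the 24 tested members, with the SE of each, for Foxk1 (left) and Foxk2 (right); purple points were called in both. Slc36a2 lies at the lower right and Slc38a4 at the upper left in both panels.

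The effects of the 2 factors differed for 12 of 24 members in overexpression, where 25.1% of all genes differed, and for 8 in knockdown, where 14.3% did (contrasts of effects in limma). In overexpression 8 members had the higher effect with Foxk1 and 4 with Foxk2 (11.6% and 13.5% of all genes), and 10 and 2 under the length and GC correction. Slc7a1 (0.65 ± 0.075, adjusted p = 2.38e-05) and Slc1a4 (0.75 ± 0.079, adjusted p = 1.04e-05) had the largest excess with Foxk1 in overexpression, and Slc36a2 (-0.86 ± 0.16, adjusted p = 0.00111) the largest with Foxk2. In knockdown the effect was higher with Foxk1 for 2 members and lower for 6 (6.68% and 7.63% of all genes). Slc36a2 fell further with Foxk2 (difference of 1.19 ± 0.16, adjusted p = 0.000164), while Slc1a4 (-0.43 ± 0.079, adjusted p = 0.00211), Slc1a5 (-0.34 ± 0.067, adjusted p = 0.00299) and Slc38a7 (-0.33 ± 0.065, adjusted p = 0.00345) had the lower effect with Foxk1. The count in knockdown fell from 8 to 4 without scrambled library 2 of the Foxk2 set, and to 5 without either Foxk2 knockdown library.

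Beside the carriers, other genes of the amino acid response moved with the same comparisons. Of 27 tested target and pathway genes of ATF4 (28 listed, none of them a member), 23 rose and 1 fell in labelled Foxk1 overexpression, with a median log2 fold change of 0.54, and 0 rose and 25 fell in Foxk1 knockdown, with a median of -0.36. In Foxk2 overexpression 19 rose and 3 fell (0.30), and in Foxk2 knockdown 1 rose and 12 fell (-0.15). Over all tested genes 24.1% rose and 23.8% fell, 20.4% and 15.5%, 23.0% and 22.0%, and 18.0% and 15.7% in the same order, with medians of 0 to 0.02. Atf4 itself went from 178 to 291 RPKM in labelled Foxk1 overexpression (0.71 ± 0.032, adjusted p = 9.30e-11), and the glycyl-tRNA synthetase Gars from 69.3 to 111 RPKM and the mTORC1 inhibitor Ddit4 from 25.0 to 108 RPKM rose too. In Foxk1 knockdown the pseudokinase Trib3 fell from 152 to 46.6 RPKM (-1.70 ± 0.059, adjusted p = 9.17e-11), and the glutathione-cleaving enzyme Chac1 fell from 29.3 to 13.1 RPKM and Nupr1 from 86.3 to 41.0 RPKM. In the Foxk2 set, asparagine synthetase (Asns) went from 95 to 139 RPKM with overexpression and from 103 to 69.5 RPKM with knockdown, Gars from 93.2 to 142 RPKM with overexpression, Psat1 of serine synthesis from 116 to 72.1 RPKM and Nupr1 from 68.2 to 42.1 RPKM with knockdown. Phgdh, the first enzyme of serine synthesis, fell in Foxk2 overexpression from 58.3 to 26.0 RPKM (-1.15 ± 0.054, adjusted p = 2.56e-10). The carriers Slc7a5, Slc3a2 and Slc36a2 shared the list's direction in all 4 comparisons, and Slc38a4, Slc38a10 and Slc43a3 ran against it. Other carriers were mixed. Slc38a2 rose in Foxk1 knockdown, Slc1a4 and Slc1a5 fell in Foxk2 overexpression, Slc1a4 rose in Foxk2 knockdown, and Slc7a11 was called in neither knockdown.

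Among enzymes that handle amino acids, more rose than fell in the overexpressions and more fell than rose in the knockdowns. Of 23 tested, 13 rose and 4 fell in labelled Foxk1 overexpression (median log2 fold change of 0.18), 2 rose and 13 fell in Foxk1 knockdown (-0.26), 13 rose and 1 fell in Foxk2 overexpression (0.25), and 3 rose and 15 fell in Foxk2 knockdown (-0.21). Either way, 73.9%, 65.2%, 60.9% and 78.3% of them were called, where 47.8%, 35.9%, 45.0% and 33.7% of all genes were. The asparaginase Aspg rose in both overexpressions, from 1.66 to 9.68 RPKM and from 1.28 to 15.1 RPKM, as did Glud1 (glutamate dehydrogenase), from 118 to 185 RPKM and from 164 to 463 RPKM. Got1 (cytosolic aspartate aminotransferase) rose from 12.6 to 25.8 RPKM in labelled Foxk1 overexpression and Gpt2 (mitochondrial alanine aminotransferase) from 36.8 to 76.4 RPKM in Foxk2 overexpression. In Foxk1 knockdown Dbt, a subunit of the branched-chain keto acid dehydrogenase, fell from 41.3 to 22.7 RPKM, Gpt from 124 to 65.7 RPKM and Gpt2 from 20.6 to 15.9 RPKM. In Foxk2 knockdown Bckdhb of the same dehydrogenase fell from 108 to 69.1 RPKM and Gpt2 from 45.3 to 35.2 RPKM, while Got2 rose from 17.1 to 28.2 RPKM.

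Genes of amino acid sensing by mTORC1 were called about as often as genes at large: 54.5%, 31.8%, 50% and 40.9% of them in the 4 comparisons, against 47.8%, 35.9%, 45.0% and 33.7% of all genes. Of 22 tested, 7 rose and 5 fell in labelled Foxk1 overexpression (median log2 fold change of 0.01), 4 rose and 3 fell in Foxk1 knockdown (0.01), 8 rose and 3 fell in Foxk2 overexpression (0.06), and 4 rose and 5 fell in Foxk2 knockdown (-0.03). The counts therefore say nothing particular of the list, and single genes are given as values. The sestrin Sesn3 fell from 9.16 to 4.71 RPKM (-0.89 ± 0.045, adjusted p = 2.90e-10) in labelled Foxk1 overexpression and from 8.16 to 6.45 RPKM (-0.32 ± 0.055, adjusted p = 0.000194) in Foxk2 overexpression, and rose from 17.7 to 26.2 RPKM (0.55 ± 0.045, adjusted p = 1.44e-07) and from 7.95 to 12.5 RPKM (0.62 ± 0.055, adjusted p = 3.91e-07) in the knockdowns. Sesn1 fell from 13.0 to 9.32 RPKM and the GTPase Rragc from 37.2 to 30.2 RPKM in labelled Foxk1 overexpression. Depdc5, a subunit of the complex that restrains mTORC1, fell in both knockdowns, from 2.87 to 2.36 RPKM and from 3.12 to 2.46 RPKM, and rose in Foxk2 overexpression from 2.52 to 3.61 RPKM. Lamtor1, of the lysosomal anchor of mTORC1, fell from 40.8 to 34.9 RPKM in Foxk1 knockdown, Fnip1 and Lamtor3 rose from 7.70 to 11.4 RPKM and from 8.08 to 11.3 RPKM in Foxk2 overexpression, and Tsc2, which holds mTORC1 back, rose from 14.8 to 17.5 RPKM in Foxk2 knockdown.

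Few carriers of amino acids and related compounds from other families were tested, and the share called was near that of all genes or below it in 2 comparisons (44.4% against 47.8% in labelled Foxk1 overexpression, 22.2% against 33.7% with Foxk2 knocked down) and above it in the other two (55.6% in each, against 35.9% and 45.0%). Of 9 tested of 15 listed, 2 rose and 2 fell in labelled Foxk1 overexpression (median log2 fold change of 0.09), 5 rose and 0 fell in Foxk1 knockdown (0.14), 3 rose and 2 fell in Foxk2 overexpression (0.05), and 2 rose and 0 fell in Foxk2 knockdown (0.02). The taurine carrier Slc6a6 rose from 38.1 to 43.7 RPKM in Foxk1 knockdown, from 40.7 to 55.2 RPKM in Foxk2 overexpression and from 31.7 to 39.3 RPKM in Foxk2 knockdown. The creatine carrier Slc6a8 rose in both knockdowns, from 5.71 to 6.86 RPKM and from 7.92 to 12.7 RPKM, and fell in Foxk2 overexpression from 10.1 to 7.91 RPKM. The glycine carrier Slc6a9 fell in Foxk2 overexpression from 7.74 to 4.65 RPKM. In labelled Foxk1 overexpression the aromatic amino acid carrier Slc16a10 rose from 0.218 to 0.510 RPKM and the nucleotide carrier Slc17a9 from 0.223 to 0.588 RPKM, and the lysosomal peptide carrier Slc15a3 fell from 2.63 to 2.14 RPKM there and rose from 5.75 to 7.40 RPKM in Foxk1 knockdown.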

How the data were processed

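The deposited RPKM table, made by the authors, covers 48440 genes and 20 libraries. HISAT2 2.1.0, Picard 1.141, featureCounts of Subread 1.5.1 and edgeR were used with build mm10, per the submitters' processing notes, and strand is not stated. Multiplying RPKM by merged exon lengths of GENCODE M21 gave whole reads, within 0.1 read, for 100% of values of the 40606 identifiers that match with their version; 7452 match without it and 382 do not. A linear model of log2(RPKM + 0.5), which understates changes of low genes, was fitted to 8 group means over all 20 libraries in limma 3.58.1 (R 4.3.3; mean trend, 12 residual degrees of freedom) for the 15981 genes with 0.5 RPKM or more in at least 2 libraries. Each manipulation was tested, two-sided, against its own controls, and differences of effects between the factors as contrasts in the same model; a call is an adjusted p under 0.05 (Benjamini-Hochberg over all 15981). Values after ± are model SEs for changes and SDs for RPKM.

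Alternatives were 2 pseudocounts (0.1 and 1), no filter, a filter at a mean of 1 RPKM, median-ratio scaling, quantile normalization, removal of a trend on length and GC content, fits on the groups compared or on 1 factor, a replicate block, voom on recovered reads and each library left out, plus a filter at a mean of 20 reads added after seeing the data. Near-identical copies were searched with BLAST+ 2.17.0 at 99% identity over 100 bases. The fit was tested on simulated data. Members and gene lists were chosen with earlier results of these data known. Values by library are given for members called in at least 1 comparison with a change of at least 0.5 and a higher group averaging at least 2 RPKM, plus Slc7a11. From each pathway list up to 3 called genes of smallest p per comparison are named. Plots were drawn in matplotlib 3.10.9 under Python 3.11.15.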

Additional observations from a re-analysis of the deposited data

Results flagged for a closer look

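Each result here is a difference between the effects of the 2 factors under the same manipulation, tested as a contrast in limma with adjustment over all genes (log2 scale, effect with Foxk1 minus effect with Foxk2). The sets of libraries of the 2 factors differ in depth and in antisense signal, so factor and set cannot be told apart.

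In overexpression, where the Foxk1 libraries are so only by label, the effect with Foxk1 was higher for Slc1a4 (0.75), Slc7a1 (0.65), Slc7a5 (0.37), Slc1a5 (0.35), Slc3a2 (0.33), Slc36a1 (0.29), Slc38a7 (0.27) and Slc38a10 (0.25). The difference for Slc36a1 missed the threshold without any 1 of 7 of its 10 libraries (adjusted p = 0.0536 to 0.103), under the length and GC correction (0.0922) and in the fit on its groups alone (0.0907). That for Slc38a10 did so under the length and GC correction (0.304), with the replicate block (0.0551) and without any 1 of 5 libraries (0.0565 to 0.126). For Slc7a5 and Slc3a2 both factors gave a rise, and that with Foxk1 was the larger. For Slc38a7 and Slc38a10 both gave a fall, and that with Foxk2 was the larger. Slc1a4 and Slc1a5 rose with one factor and fell with the other. The effect with Foxk1 was lower for Slc36a2 (-0.86), Slc38a9 (-0.41), Slc7a6os (-0.21) and Slc7a6 (-0.16, adjusted p = 0.0463, which moved to 0.0524 to 0.0986 under 6 of the alternatives). The Slc7a6 difference also missed the threshold without Foxk1 empty-vector library 1 or 3, or without any 1 labelled Foxk1 overexpression library (0.0558 to 0.0984). Without Foxk2 overexpression library 2 the Slc7a6 difference was -0.12. The difference for Slc38a9 missed the threshold without Foxk2 empty-vector library 2 (0.0864) or overexpression library 2 (0.0737), and those for Slc7a6os (0.0883) and Slc7a5 (0.0523) under the length and GC correction.

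In knockdown the effect was higher with Foxk1 for Slc36a2 (1.19), which fell with both factors and further with Foxk2, and for Slc36a4 (0.36, adjusted p = 0.0402, with neither effect called by itself). The difference for Slc36a4 missed the threshold without any 1 of 6 libraries (0.0657 to 0.171), with no filter (0.0704), under the length and GC correction (0.0984) and with the replicate block (0.0675). It was lower for Slc1a4 (-0.43), Slc1a5 (-0.34), Slc38a7 (-0.33), Slc7a5 (-0.29), Slc7a1 (-0.25) and Slc7a6os (-0.18). The difference for Slc7a5 missed the threshold without any 1 of 8 of its 10 libraries, with adjusted p of 0.0516 to 0.110, under the length and GC correction (0.167) and with no filter (0.0540). That for Slc7a1 missed it without any 1 of 7 libraries (0.0570 to 0.186), under the length and GC correction (0.0717), with the replicate block (0.0862) and in the fit on its groups alone (0.0645). That for Slc7a6os missed it with the block (0.0900), by voom (0.0574), in the fit on its groups alone (0.0587) and without Foxk2 scrambled library 2 (0.139) or knockdown library 2 (0.101).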

How the results depend on the processing

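Of 96 effects of tested members in the 4 comparisons, 67 were called. Of these, 44 kept their call in each of the 12 other settings that tested the gene. They also kept it in each fit without 1 library of the groups compared, while fits without a library of other groups were not counted. 20 lost it in at least 1 other setting, 3 lost it only when a library was left out, and 13 uncalled effects gained a call. Counted over these effects and the differences between the factors together, no result called in the main fit changed sign. Among those not called in the main fit, 34 values of 17 results did. Most losses came with the length and GC trend removed (12), in fits on the groups compared alone (11) and with quantile normalization (9); the cause was not tested.

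Members called ranged from 17 to 20 in labelled Foxk1 overexpression, 13 to 18 in Foxk1 knockdown, 12 to 21 in Foxk2 overexpression and 10 to 14 in Foxk2 knockdown over the other settings. Without 1 library they were 18 to 20, 14 to 16, 14 to 17 and 8 to 9 in that order. Differences between the factors numbered 10 to 14 in overexpression (8 to 12 without 1 library) and 5 to 9 in knockdown (4 to 7 without 1 library), where the replicate block gave the 5. The replicate numbers did not pair the samples: deviations of same-numbered libraries correlated at -0.0587 to 0.0331 in the Foxk1 comparisons, and at 0.0222 and -0.0858 in those of Foxk2. With the block, Slc7a3 lost its call in Foxk1 knockdown (adjusted p = 0.0867) and Slc7a7 gained one in Foxk2 overexpression (0.0270), and 5 differences between the factors were lost (0.0551 to 0.0900). With 2 libraries a group in the Foxk2 set, a fit without 1 assumes that the lone library varies like the other groups. The filter on low values is in RPKM: the 19 untested carriers had at most 102 reads in a library, and some tested members had fewer.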
